A study of Mus musculus with 4 samples.

Results

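The gene for Deaf1, the protein that was immunoprecipitated, overlaps its neighbour Tmem80 on mouse chromosome 7, and the peaks of Deaf1 binding across both genes are described here. The members were chosen by gene name. They comprise every peak and every combined region inside the RefSeq spans of Deaf1 (gene ID 54006, chr7:141297176-141338869, GRCm38) and Tmem80 (gene ID 71448, chr7:141328130-141337156) plus 5 kb on each side. This window of 51.7 kb, chr7:141292176-141343869, held 8 of 1860 peaks of ChIP replicate 1, 13 of 3126 peaks of ChIP replicate 2 and 5 of 1550 regions of the authors' combined list. No peak crossed an edge of the window.

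Deaf1 occupancy was measured by chromatin immunoprecipitation and sequencing (ChIP-seq) in C2C12, a mouse cell line of myoblasts, the precursors of muscle fibres. All 4 libraries came from C2C12 cells in growth medium with fetal serum, with no treatment named. The 2 ChIP libraries were made with an antibody to Deaf1 and the 2 input libraries without antibody. The labels describe fixed, sonicated chromatin and also use the word native, which usually means unfixed chromatin, and no library from cells that lack Deaf1 was analysed here.

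Deaf1 (deformed epidermal autoregulatory factor 1) is a transcription factor. It contacts DNA through a SAND domain that recognises the core TTCG, and it carries a MYND zinc finger for contacts with other proteins. Its name comes from a fly protein found on a stretch of DNA through which the gene Deformed regulates itself. Tmem80 encodes a small membrane protein linked to the base of the primary cilium.

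The arrangement of the starts matters for reading the peaks. RefSeq promoter windows (250 bases before and 50 after a start) gave Deaf1 2 starts, both on the minus strand. The outer start, at position 141338783, lies 219 bp from the start of Eps8l2 on the plus strand, and Eps8l2 encodes a protein of the actin cytoskeleton. The inner start, at position 141327725, lies 11058 bp further into the gene and only 405 bp from the start of Tmem80 on the plus strand, at position 141328130. Both Deaf1 starts are thus paired head to head with another gene. Which start C2C12 cells use was not measured in these data.

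The strongest peak of the locus covered the inner pair of starts, so the 250 bases before each of these are shown, 5′ to 3′ on the strand of the gene (RefSeq, GRCm38.p6). Capitals mark TTCG and its reverse complement CGAA. The first stretch is chr7:141327726-141327975 on the minus strand, and the second is chr7:141327880-141328129 on the plus strand.
Deaf1 inner start: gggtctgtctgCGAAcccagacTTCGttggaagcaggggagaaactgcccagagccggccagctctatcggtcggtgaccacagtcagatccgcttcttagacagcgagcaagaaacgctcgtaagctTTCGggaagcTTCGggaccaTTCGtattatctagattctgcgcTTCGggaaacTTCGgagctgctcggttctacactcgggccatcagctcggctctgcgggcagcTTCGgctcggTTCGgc
Tmem80 start: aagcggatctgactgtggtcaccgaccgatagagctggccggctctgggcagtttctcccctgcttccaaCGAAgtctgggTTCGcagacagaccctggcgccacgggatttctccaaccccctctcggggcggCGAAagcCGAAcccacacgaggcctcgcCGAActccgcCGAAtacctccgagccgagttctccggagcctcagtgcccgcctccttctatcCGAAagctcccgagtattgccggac
The stretches overlap at their 5′ ends and, read 5′ to 3′, run in opposite directions, each towards its own start. For contrast, the 250 bases before the outer start of Deaf1 (chr7:141338784-141339033, minus strand) hold neither word, and no peak of either library lay over them.
Deaf1 outer start: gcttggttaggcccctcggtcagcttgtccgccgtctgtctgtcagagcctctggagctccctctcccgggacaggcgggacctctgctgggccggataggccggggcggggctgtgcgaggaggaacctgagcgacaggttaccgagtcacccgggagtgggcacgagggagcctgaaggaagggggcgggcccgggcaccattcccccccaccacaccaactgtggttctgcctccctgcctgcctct

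One broad combined region, chr7:141325566-141330465, covered both inner starts. It was 4900 bp wide and reached 2159 bp past the inner Deaf1 start into the Deaf1 gene body and 2335 bp past the Tmem80 start into Tmem80. Fold enrichment here is the authors' ratio of ChIP fragments to local background at the highest point of a peak, its summit. In replicate 1 the strongest peak (chr7:141326909-141329302, 2394 bp) had a fold enrichment of 34.6 with 96 fragments stacked at the summit (95% exact Poisson interval 77.8 to 117). In replicate 2 a single peak spanned the whole region and had a fold enrichment of 41.4 with 127 fragments (106 to 151). The mean fold enrichment was 38.0 ± 4.82 (SD, n = 2).

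The summits lay 16 bp apart, at positions 141328162 and 141328178. They fell 32 and 48 bp after the Tmem80 start and 437 and 453 bp upstream of the inner Deaf1 start. By distance the summit therefore belongs to Tmem80, while the peak covers both starts and cannot be given to 1 gene. Whether a summit is exonic or intronic was not analysed here.

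At the summit the background was 1.80 fragments in replicate 1 and 2.09 in replicate 2. These are the lowest values in each list, shared within 0.1% by 43.3% and 41.5% of all peaks, so the background used there showed no local rise.

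**Figure D1:**
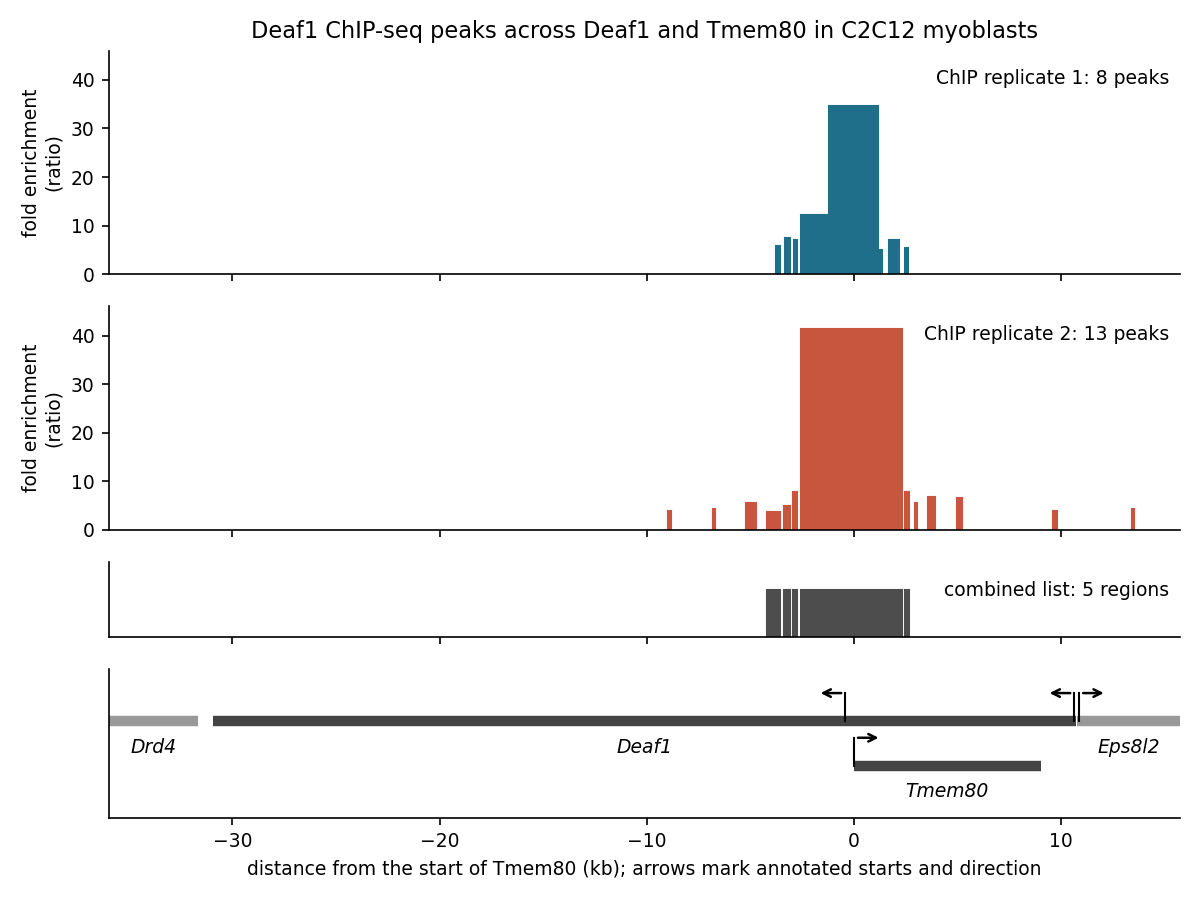
Peaks of each ChIP replicate and the combined regions across the window, by distance from the Tmem80 start (kb, increasing along the Tmem80 strand). Each bar spans a peak, and its height is the fold enrichment at the summit (a ratio), not a coverage profile. Grey lines are gene spans and arrows are annotated starts. The tallest peak of each replicate, 34.6 and 41.4, covers the inner Deaf1 start and the Tmem80 start, while no replicate 1 peak lies near the outer Deaf1 start.

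Replicate 1 divided the broad region into 4 peaks where replicate 2 had 1. Besides the strongest, a peak of 1249 bp (chr7:141325572-141326820) lay on the Deaf1 side, with its summit 1855 bp into the Deaf1 gene body from the inner start. It had a fold enrichment of 12.1 with 33 fragments (95% exact Poisson interval 22.7 to 46.3), the second highest value of the locus in that library. On the Tmem80 side, summits 1338 and 1781 bp after the Tmem80 start had fold enrichments of 5.00 (13 fragments) and 7.14 (19 fragments). The shoulder towards Deaf1 was thus the taller one, although the intervals of 33 and 19 fragments overlap.

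Smaller peaks flanked the broad region on both sides, and 4 combined regions lay there. On the Deaf1 side, the region chr7:141325186-141325391 had fold enrichments of 7.14 and 7.77 in replicates 1 and 2. Next outwards, chr7:141324744-141325043 had 7.50 and 4.93, and chr7:141323940-141324571 had 5.71 and 3.77. Their summits lay between 2432 and 3447 bp into the Deaf1 gene body from the inner start. On the Tmem80 side, chr7:141330591-141330788 had 5.35 and 7.77, with summits 2565 and 2569 bp after the Tmem80 start.

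The flanking regions all lay below the median strength. Their mean fold enrichments were 7.45 ± 0.447, 6.21 ± 1.81 and 4.74 ± 1.37 from the inside outwards on the Deaf1 side and 6.56 ± 1.71 on the Tmem80 side (SD, n = 2 each), against a median of 7.88 over all 1550 regions. Values in the 2 replicates did not order these regions in the same way: the Tmem80-side region was the lowest of the 4 in replicate 1 and tied for the highest in replicate 2. The summits of the 2 replicates were 4 to 46 bp apart at 3 of these regions and 224 bp apart at the outermost, chr7:141323940-141324571.

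Replicate 2 alone had 8 further peaks, with fold enrichments from 3.89 to 6.80 and 11 to 20 fragments at the summit. On the Deaf1 side, peaks with summits 4970, 6788 and 8895 bp from the Tmem80 start had fold enrichments of 5.50, 4.36 and 3.90. On the Tmem80 side, those at 3001, 3711 and 5055 bp had 5.50, 6.80 and 6.48. On the Deaf1 side the lower folds came with higher backgrounds, not with fewer fragments: the 3 summits had 16, 16 and 18 fragments over backgrounds of 2.09, 2.90 and 3.87. All 6 summits had 16 to 20 fragments, and their 95% exact Poisson intervals, which together run from 9.15 to 30.9, all overlapped.

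The remaining 2 replicate 2 peaks were the closest to the outer Deaf1 start. One, chr7:141337752-141337935, had its summit 939 bp inside Deaf1 from that start, with a fold enrichment of 3.89 and 11 fragments (95% exact Poisson interval 5.49 to 19.7). The other, chr7:141341560-141341659, lay inside Eps8l2 with a fold enrichment of 4.21 and 12 fragments (6.20 to 21.0). They had the highest q values of the locus, 0.00891 and 0.00164 as deposited. In replicate 1 the summit nearest to the outer start was 8088 bp away.

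The far ends of both genes were free of peaks. In the direction of transcription, the last 22004 bp of Deaf1 (52.8% of its span) held no peak of replicate 2, and the last 27190 bp (65.2%) held none of replicate 1. In Tmem80 the last 3807 bp held no replicate 2 peak. By summit, 4 of 8 replicate 1 peaks lay in Tmem80, where the spans of both genes overlap, and 4 in Deaf1 after its inner start. In replicate 2, 5 lay in Tmem80, 6 in Deaf1 after its inner start, 1 in Deaf1 between the end of Tmem80 and the outer start, and 1 outside both genes.

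**Figure D2:**
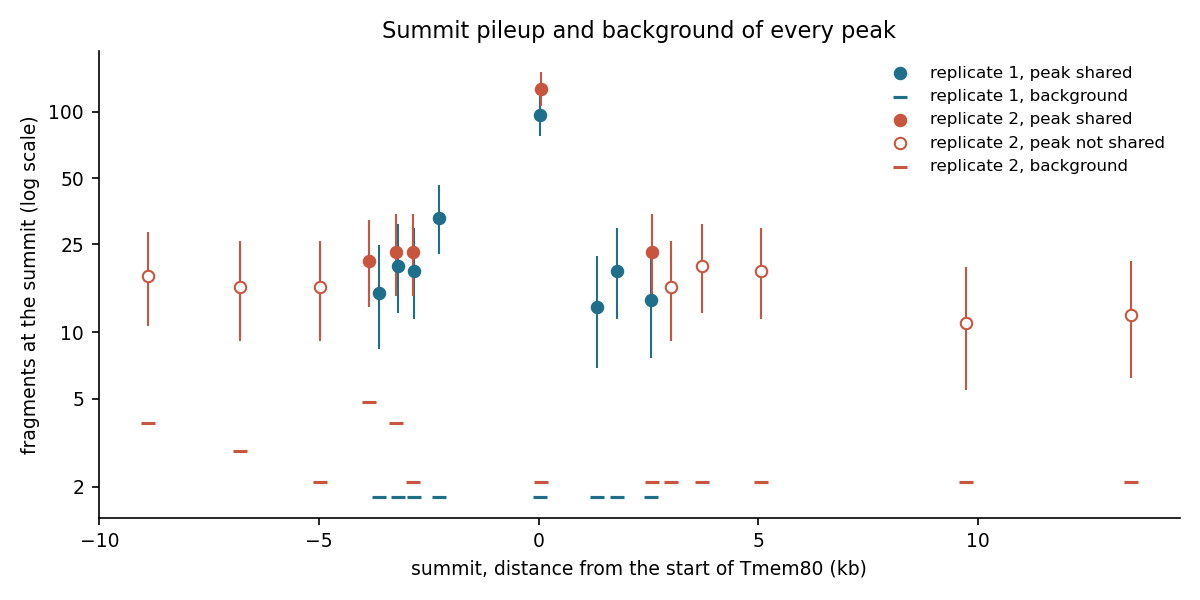
Fragments at the summit of every peak in the window (log scale) by distance from the Tmem80 start (kb). Circles are pileups with 95% exact Poisson intervals, filled where the peak overlaps a peak of the other replicate, and short lines are the background expected at the same summit. The central summit, with 96 and 127 fragments, stands above the 11 to 33 fragments of all others.

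The replicates were compared at the locus by overlap and by summit pileup. All 8 replicate 1 peaks overlapped a replicate 2 peak (92.4% of all replicate 1 peaks did so), and 5 of 13 replicate 2 peaks (38.5%, against 50.4% of all) overlapped a replicate 1 peak. At the 5 pairs of mutually strongest partners, the ratio of replicate 2 to replicate 1 fragments ran from 1.15 to 1.64, around the median of 1.31 over all 1551 pairs. At the central pair it was 1.32 (95% exact interval 1.01 to 1.74). None of the 5 differed from the median ratio (exact binomial test with Benjamini-Hochberg adjustment over all pairs, adjusted p = 1 for each, smallest unadjusted p = 0.619), and the background is 0% of the 1551 pairs called, with 6 pairs at an unadjusted p under 0.05.

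That test compares these libraries and has a limit. Over all pairs the SD of the log2 pileup ratio was 0.27, below the 0.40 that counting error of independent fragments gives, and over the 86 pairs with more than 50 fragments in replicate 1 it was 0.17 against 0.23. Because the test assumes the larger spread, it could hardly call any pair. The absence of calls therefore says little about agreement at this locus. The labels call the libraries replicates and do not say whether they came from separate cultures. An SD over n = 2 here is therefore the spread between these libraries, which may be technical.

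At 4 replicate 2 summits, all on the Deaf1 side, the background stood above the genome-wide value. It was 3.87 fragments at the summit 3238 bp from the Tmem80 start, 4.84 at 3852 bp, 2.90 at 6788 bp and 3.87 at 8895 bp. In replicate 1 all 8 summits had the genome-wide value. Replicate 2 had the lower fold enrichment at the 2 outer Deaf1-side regions. Its raw fragment numbers there were 23 against 20 at chr7:141324744-141325043 and 21 against 15 at chr7:141323940-141324571. These ratios, 1.15 and 1.4, lie on either side of the median of 1.31 over all pairs. Relative to that median, replicate 2 thus had slightly fewer fragments at the first region and slightly more at the second. The part of the input in these differences was not tested.

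Among all 1550 combined regions, the central region ranked 10th by mean fold enrichment and 8th by width. Only 9 regions were wider than 4 kb, against a median width of 196.5 bp. The authors' irreproducible discovery rate (IDR) score, which rises as the ranks of a region agree between replicates, was 189 for it, an IDR of 0.351. Yet by fold enrichment its strongest peak ranked 11th in the list of replicate 1 and 9th in that of replicate 2. Low scores were common among the 10 regions of highest mean fold enrichment: the second strongest had 845, and none of the others was above 200. The reason for these scores was not tested. The 4 flanking regions had scores of 121, 206, 392 and 121 from left to right, and 121 is the lowest score in the list. None of the 5 regions reached a score of 540, which stands for an IDR of 0.05 and was reached by 39.2% of all regions.

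**Figure D3:**
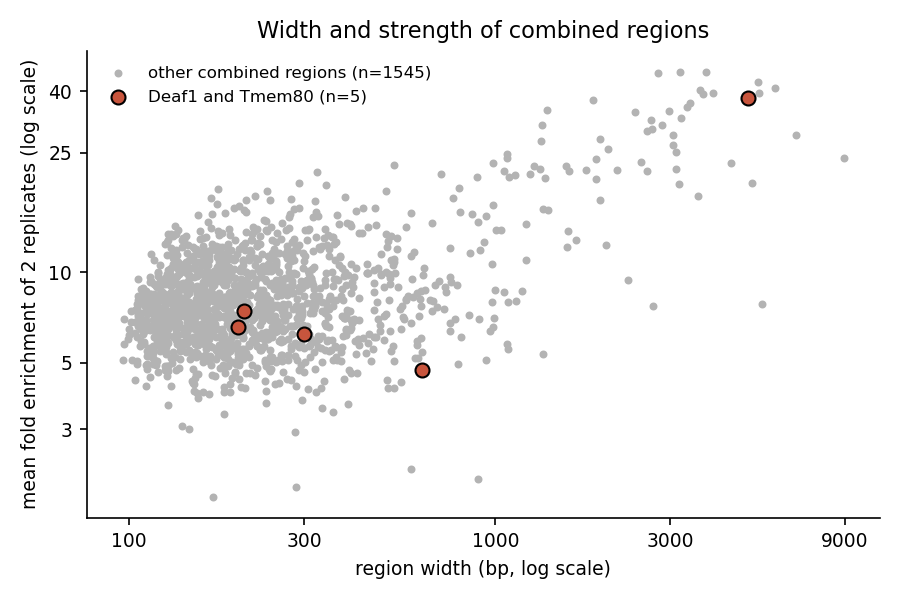
Mean fold enrichment of the 2 replicates against width for all 1550 combined regions (both axes log scale). Filled circles are the 5 regions of the Deaf1 and Tmem80 window. The central one, 4900 bp wide with a mean of 38.0, lies at the upper right, and the other 4 lie within the main cloud, at means of 4.74 to 7.45.

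Counted by gene, the locus was densely covered. Within its span plus 5 kb, Deaf1 had 8, 13 and 5 peaks or regions in replicate 1, replicate 2 and the combined list, and Tmem80 had 8, 10 and 5. The 5 regions are the same ones for both genes. At least 5 regions were found for 12 of 21887 protein-coding genes (0.0548%), and at least 1 region for 8.96%. By the number of replicate 2 peaks Deaf1 ranked 9th and Tmem80 19th, ties included. Long genes have more room for peaks, and per kb of window the order turned, with Tmem80 5th and Deaf1 42nd. The neighbours Eps8l2 and Drd4, the dopamine receptor D4 gene, had no combined region.

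A count restricted to gene ends would miss the Deaf1 gene. Tmem80 had a region within 1 kb of an end of its span, as did 6.99% of protein-coding genes. Deaf1 had none, because its inner start is not an end of the span and the broad region stops 8318 bp short of the outer start. With RefSeq promoter windows in place of span ends, both genes had a region over a start, as did 6.69% of the 17492 protein-coding genes with such a window.

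The 300-base promoter window of the inner Deaf1 start held 11 TTCG, counting both strands (TTCG and CGAA, each match counted, overlaps included). No other of the 32851 windows in the table held as many, and the next had 10. Of the 11, 10 were on the strand of Deaf1. The Tmem80 window held 7, a number reached by 17 windows (0.0517%), of which 6 read TTCG on the Deaf1 strand. At least 1 TTCG was found in 44.7% of all windows, and the median window had 0. The windows of the outer Deaf1 start and of Eps8l2 had 0.

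Joined into 1 stretch of 504 bp (chr7:141327676-141328179), the windows of the inner pair held 16 TTCG, 15 of them on the Deaf1 strand. The windows overlap by 96 bp and share 2 of these. The matches ran from 447.5 to 23.5 bp before the Tmem80 start, counted from their centres. The summits, at positions 141328162 and 141328178, lay past these matches, 56 and 72 bp from the nearest match in the stretch. The stretch ends at position 141328179, so almost no sequence after the summits was searched. Closer matches on that side would have been missed. The central region extends beyond the stretch on both sides, and its remaining sequence was not analysed here.

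**Figure D4:**
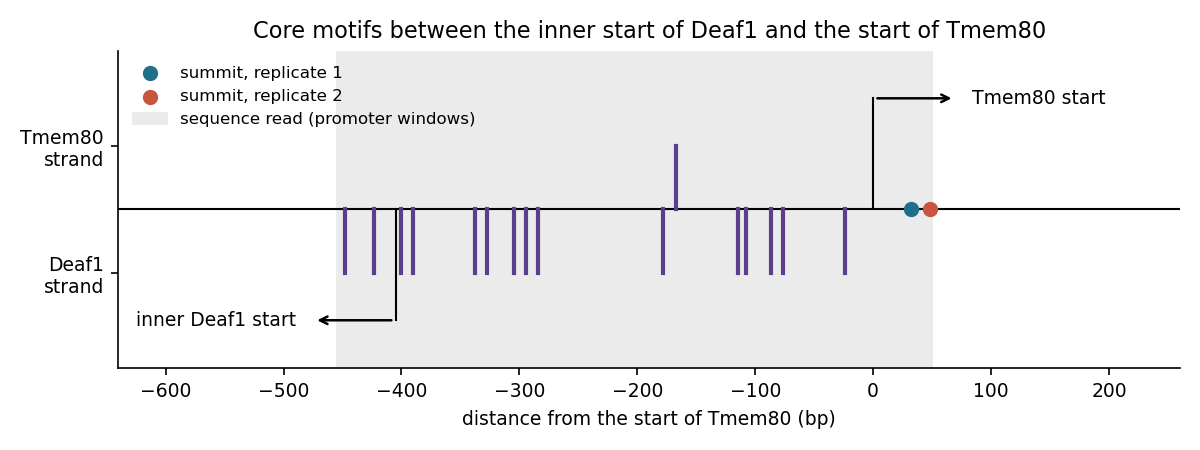
Positions of the core motif TTCG in the joined stretch, by distance from the Tmem80 start (bp). The stretch extends past both the inner Deaf1 start and the Tmem80 start, and its leftmost matches lie past the inner Deaf1 start. Ticks below the line are matches on the Deaf1 strand, and the tick above is on the Tmem80 strand. Dots are the summits of the strongest peak, which sit 32 and 48 bp after the Tmem80 start and outside the run of 15 ticks on the Deaf1 strand. Shading marks the sequence read, which ends just past the summits.

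The inner windows are rich in CpG, and TTCG contains CpG, so the counts were also set against CpG number. The inner Deaf1 window had 30 CpG, of which 36.7% lay in a TTCG, and the Tmem80 window had 35, of which 20% did. Over all windows the share was 5.44%. Of the 3837 windows with at least 30 CpG, no other had a share as high as the inner Deaf1 window, and the next reached 22.6%. Of the 2284 windows with at least 35 CpG, no other had a share as high as the Tmem80 window. These CpG limits are the windows' own numbers. With no limit on CpG number, 1570 windows (4.78%) had a share at least as high as the inner Deaf1 window. For the Tmem80 window these were 4420 (13.5%).

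One spacing recurred among the matches. On the Deaf1 strand the 14 steps from one match to the next in the joined stretch ran from 7 to 106 bp, and 5 of them were exactly 10 bp, which leaves 6 bases between them (TTCGNNNNNNTTCG, searched on both strands, chosen after this sequence was seen). The inner Deaf1 window held 4 such pairs and the Tmem80 window 1, which chose the gap and is given as a description only. Apart from the windows of Deaf1 and Tmem80, the pair was found in 60 windows, of which 17 (28.3%) lay under a combined region, against 11% of all 5488 windows with at least 2 TTCG outside these genes. For pairs on 1 strand with any other gap from 0 to 15 bases this share ran from 8.0% to 25%, and the numbers of windows are too small to order the gaps.

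Over all promoter windows, 4.37% lay under a combined region. The share was 2.18% of the 18169 windows with 0 TTCG and 32.7% (16) of the 49 windows with at least 6. These 16 include the inner Deaf1 and Tmem80 windows themselves. Windows under a region had a median of 24 CpG and the others 6, and the part of CpG content in this difference was not tested. The inner Deaf1 and Tmem80 windows thus belong to a class in which most windows had no region. Among the other 9 of the 10 regions with the highest mean fold enrichment, 6 covered at least 1 promoter window, and the highest TTCG number among the windows of each region was 2 to 6.

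**Figure D5:**
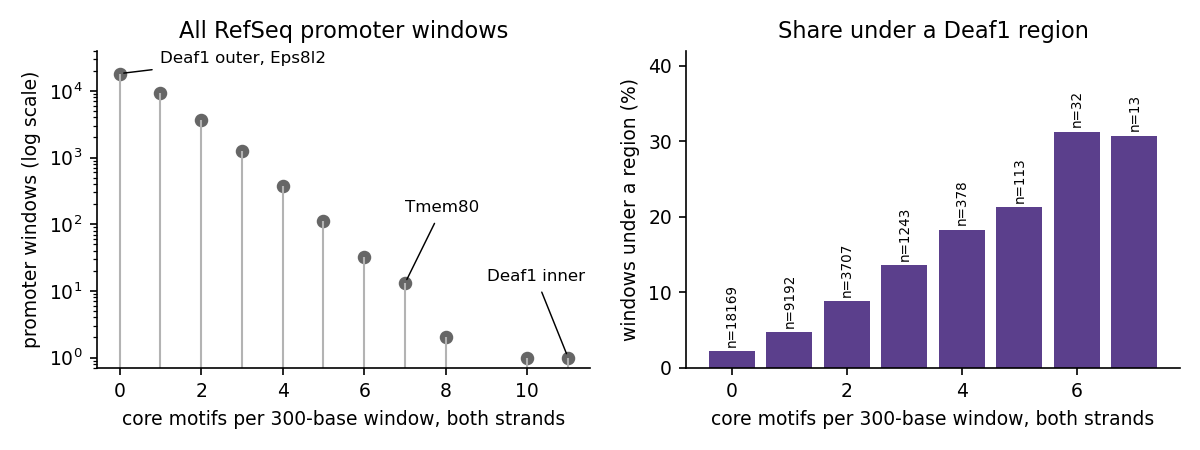
Left, number of RefSeq promoter windows (log scale) by the number of core motifs TTCG in 300 bases on both strands. Right, percentage of windows under a combined Deaf1 region for each motif number found in at least 10 windows. The inner Deaf1 window stands alone at 11, Tmem80 is 1 of 13 windows at 7, and the percentage rises from 2.18% at 0 to 31.3% at 6.

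For context, 9 genes around Deaf1 were examined. They were the FOXO transcription factors named in the series title (Foxo1, Foxo3, Foxo4 and Foxo6), the partner Lmo4, and further genes listed as targets. The listed targets were Htr1a, Eif4g3, Atg16l1 and Pik3c3. A region within 1 kb of a gene end was found at 2 of the 9, Eif4g3 and Atg16l1, against 6.99% of all protein-coding genes. Both are among the listed targets, and the list was chosen with earlier results of these data known. The count is therefore a description and no evidence of enrichment. Eif4g3, a translation initiation scaffold, resembled the Deaf1 locus, with a broad region of 4385 bp and fold enrichments of 17.7 and 28.5. At Atg16l1, an autophagy conjugation gene, the region was 290 bp wide with fold enrichments of 10.8 and 6.47. Pik3c3, the class III lipid kinase of autophagy, had a region in its span plus 5 kb, but not within 1 kb of an end, with 9.30 and 13.3. None of the 4 FOXO genes had a combined region in its span plus 5 kb, where 8.96% of all protein-coding genes had one, so a count of 0 of 4 is near the background. Foxo4 had 1 peak of replicate 2 there.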

How the data were processed

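Per the submitters' processing notes, FastQC 0.11.8, BWA 0.7.17-r1198 and MACS2 2.1.2 were used with the build mm10 (GRCm38). Their settings, and whether duplicates were removed, are not given in the sources used here. Peak lists of the 2 ChIP libraries and the list that combines them were analysed, and the inputs entered only through each peak's background. The deposited fold enrichment is a ratio of ChIP to background at each summit, and the deposited p and q are −log10 values, all from the authors' caller. The deposited score of the combined list is a scaled −log2 of the IDR. In the combined list, 6 unnamed columns of values for single samples were not used, and region strength was taken from the strongest overlapping peak of each library.

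Fragments and background at each summit were recovered from fold = (pileup + 1)/(background + 1) taking p as the Poisson chance of a higher pileup. Exactly 1 whole number fitted 100% of peaks in both lists (largest error in −log10 p 5.1e-05), and the procedure was tested on simulated data. The median summit had 22 and 23 fragments in replicates 1 and 2, which sets the precision of single peaks. Intervals are 95% and cover counting error only.

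Gene spans (1 per gene, no strand) came from RefSeq on GRCm38.p6, for 21887 protein-coding genes on assembled chromosomes, and starts, strands and 32851 sequences from the RefSeq promoter table. Coordinates are 1-based. Python 3.11.15, scipy 1.17.1 and pandas 2.3.3 were used. Overlap means at least 1 bp. Paired pileups were compared by a two-sided exact binomial test against the median ratio. All other results are descriptions. Deaf1, Tmem80, any gene overlapping the window and the 9 context genes were named by rule. The members and lists were chosen with earlier results of these data known. Alternatives covered the flank (0 and 10 kb), −log10 q of at least 5, IDR scores of at least 540 and 830, reciprocal overlap of 50%, each replicate alone, and the motif window and strand.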

Additional observations from a re-analysis of the deposited data

How the results depend on the processing

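The numbers of peaks and regions in the window stayed within 1.5 times their values with flanks of 0 or 10 kb. Requiring −log10 q of at least 5 left 8 of 13 replicate 2 peaks, and with that limit in both libraries 5 peaks of replicate 1 and 3 of replicate 2 were shared. A reciprocal overlap of 50% left 3 shared peaks in each list, without the central pair, which replicate 1 divided, and the outermost Deaf1-side pair. At an IDR score of at least 540, and at 830, which was added after seeing the data, 0 of the 5 regions remained. The central region's mean fold enrichment was 34.6 to 41.4 with either replicate left out, and 28.1 when all its peaks were averaged. On the gene's own strand alone, 1 TTCG remained at Tmem80 and 10 at the inner Deaf1 start. In the 250 bases before the start, a choice added later, the numbers were 7 and 9. Among the 9 context genes, 1 had a region over a RefSeq promoter window (also added later), and 5 of the 9 have such a window in the table. Per kb of window, the rank by combined regions went from 5 to 81 for Deaf1 and from 5 to 8 for Tmem80. The pileup comparison still called 0 pairs of the window with the ratio of backgrounds, 1.16. No paired analysis was possible because input values were not analysed here, which leaves 1 group of libraries. At 11 to 33 fragments, counting error limits the order of the flanking peaks.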
